A study of Mus musculus with 6 samples.

Results

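The chaperone and unfolded protein response genes examined here are a fixed list of 37 genes, found by symbol in the deposited gene tables among 46072 genes. Each member was taken by its symbol, without a threshold on its values. It holds 12 cytosolic chaperones of the HSP70, HSP90, HSP110 and HSP40 families with the co-chaperone Bag3, 4 small heat shock proteins, 3 mitochondrial chaperones, 12 chaperones and folding enzymes of the endoplasmic reticulum (ER), and 6 factors and targets of the unfolded protein response and the integrated stress response. All 37 were present in every table, and 30 had a mean of at least 1 FPKM (fragments per kilobase of a transcript after scaling to library size) over the libraries, the level required for a comparison. Of all genes, 8637 reached it. The 7 members below it were Hspa1a, Hspa1b, Hspa2, Sdf2l1, Trib3, Chac1 and Asns.

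Chaperones bind unfolded or misfolded protein and help it to fold. The cytosol has the heat shock proteins, whose genes are switched on by heat shock factor when unfolded protein accumulates. The ER has its own set (BiP, encoded by Hspa5, GRP94, calreticulin and the disulfide isomerases), which is switched on through ATF6 and the spliced form of XBP1 in the unfolded protein response. A further branch, through the kinase PERK and the factor ATF4, induces Ddit3, Trib3, Chac1 and Asns and is shared with the integrated stress response. In heart muscle, small heat shock proteins and Bag3 also maintain the proteins of the sarcomere.

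The libraries hold RNA immunoprecipitated (RIP-seq) from left ventricles of 10-week-old male mice with an antibody to EZH2, the methyltransferase of polycomb repressive complex 2, or with normal IgG. Mice were Sham or were infused with angiotensin II (AngII) by osmotic minipump for 4 h or for 24 h, at a rate given by the labels as 1 mg/kg/min, with 2 mice in each group. Sham mice received saline according to the methods, while the labels call them untreated, and the time at which they were collected is not stated. There is 1 library for each antibody in each group, 6 in all, and every library mixed 2 RIP products. The strain is labelled C57BL/6 for 4 libraries, C57BL/7 for AngII 4 h anti-EZH2 and C57BL/8 for AngII 24 h anti-EZH2. The labels name no genetic alteration in any group. The IgG and anti-EZH2 libraries of a group came from the same mice, so they are not replicates of a treatment, and no test between treatments was possible. Only the difference between antibodies, over the 3 groups, was tested.

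The value of 1 fragment, read from the steps between low FPKM values, put the libraries at about 3820000 to 7890000 fragments. Between 59.3% and 61.1% of low values were then whole to within 0.1 fragments, where 20.0% of evenly spread values would be. The value of 1 fragment was itself chosen for a high share of whole values, so the 20.0% is not its chance level. It also rests on an assumed mean fragment length. Mitochondrially encoded genes took 12.4%, 13.7% and 13.9% of the IgG FPKM in Sham and at 4 h and 24 h of AngII, and 12.0%, 6.72% and 31.3% of the anti-EZH2 FPKM. Differences between libraries are therefore given on the scale of log2(FPKM + 0.5) relative to the median of the 8637 genes. That median was shifted by 0.16 (IgG) and 0.29 (anti-EZH2) from Sham to AngII 4 h, by 0.18 and -0.07 from Sham to AngII 24 h, and by -0.19, -0.06 and -0.52 from IgG to anti-EZH2 in Sham, AngII 4 h and AngII 24 h.

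Promoters of 31 members were found in the RefSeq table (build GRCm38.p6, 250 bases before to 50 bases after the start). Hspa8, Hspa9, Hsp90aa1, Hsp90ab1, Manf and Hyou1 had no entry. The sequences printed are the 250 bases before the start of 7 members whose values are described below. They are read 5′ to 3′ on the strand of the gene, with the motif match in capitals. In the first 3, ER chaperone genes that were lower in all AngII libraries than in both Sham libraries, the capitals mark the ER stress response element, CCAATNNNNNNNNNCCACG on either strand.
Calr (chr8:84846932-84847181, minus strand): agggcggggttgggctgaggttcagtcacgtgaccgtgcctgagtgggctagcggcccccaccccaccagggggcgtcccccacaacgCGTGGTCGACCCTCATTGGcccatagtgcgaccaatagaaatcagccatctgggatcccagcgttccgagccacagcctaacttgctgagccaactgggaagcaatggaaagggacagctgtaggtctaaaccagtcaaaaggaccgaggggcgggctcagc
Hspa5 (chr2:34771840-34772089, plus strand): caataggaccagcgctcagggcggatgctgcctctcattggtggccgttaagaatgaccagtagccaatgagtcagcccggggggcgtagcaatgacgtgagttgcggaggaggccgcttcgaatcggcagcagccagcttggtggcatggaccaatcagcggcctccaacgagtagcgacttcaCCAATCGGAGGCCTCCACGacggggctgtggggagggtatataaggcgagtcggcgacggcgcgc
Hsp90b1 (chr10:86705445-86705694, minus strand): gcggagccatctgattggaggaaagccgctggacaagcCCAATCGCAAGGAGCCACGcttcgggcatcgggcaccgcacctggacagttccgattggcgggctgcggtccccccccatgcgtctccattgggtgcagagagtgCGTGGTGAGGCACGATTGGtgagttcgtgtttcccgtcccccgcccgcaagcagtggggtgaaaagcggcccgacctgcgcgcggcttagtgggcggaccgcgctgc

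In Herpud1, the ER gene with the opposite difference, the capitals mark the site bound by ATF4 in amino acid response elements, TGATGNAAN on either strand.
Herpud1 (chr8:94386179-94386428, plus strand): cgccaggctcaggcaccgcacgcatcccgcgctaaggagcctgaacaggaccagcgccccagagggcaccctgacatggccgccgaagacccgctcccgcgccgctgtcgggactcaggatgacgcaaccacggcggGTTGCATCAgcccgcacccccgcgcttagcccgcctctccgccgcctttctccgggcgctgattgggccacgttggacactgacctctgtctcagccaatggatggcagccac

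In Hspe1, which shares its promoter region with Hspd1 on the other strand, the capitals mark the heat shock element of 3 units, GAANNTTCNNGAA or TTCNNGAANNTTC. They cover 2 overlapping matches that form 1 run. In Hspa1a and Hspa1b they mark the form with 2 units, GAANNTTC or TTCNNGAA, which every 3-unit element also contains.
Hspe1 (chr1:55087898-55088147, plus strand): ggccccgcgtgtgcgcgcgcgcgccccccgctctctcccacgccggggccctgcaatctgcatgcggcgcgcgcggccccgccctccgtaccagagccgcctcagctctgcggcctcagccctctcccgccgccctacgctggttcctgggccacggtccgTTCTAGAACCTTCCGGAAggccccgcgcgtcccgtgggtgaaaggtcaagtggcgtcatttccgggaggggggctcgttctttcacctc
Hspa1a (chr17:34972157-34972406, minus strand): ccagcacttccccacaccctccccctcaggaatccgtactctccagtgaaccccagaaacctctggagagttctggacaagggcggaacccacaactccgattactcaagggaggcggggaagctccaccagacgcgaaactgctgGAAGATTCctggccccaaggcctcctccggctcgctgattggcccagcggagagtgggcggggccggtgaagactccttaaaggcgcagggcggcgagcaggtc
Hspa1b (chr17:34959239-34959488, minus strand): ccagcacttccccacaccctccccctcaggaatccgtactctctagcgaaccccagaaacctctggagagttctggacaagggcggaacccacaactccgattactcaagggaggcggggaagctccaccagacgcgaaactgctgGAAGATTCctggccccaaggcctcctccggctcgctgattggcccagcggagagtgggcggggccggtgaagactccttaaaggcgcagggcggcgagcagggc

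The Hspa1a and Hspa1b sequences differ at 3 bases. The match ends 143 bases before the start in Calr and 46 bases before it in Hspa5, and Hsp90b1 has 2 matches, at 193 and 88 bases. Among 32851 promoters of all genes, the ER stress response element was in 0.119%. It was in the promoters of 6 members (Hspa5, Hsp90b1, Calr, Canx, Pdia6 and Creld2), all of the ER. Pdia3 and Pdia4 had no match and were also lower in all AngII libraries than in both Sham libraries. Canx, Pdia6 and Creld2 had a match and did not meet that rule. Pdia6 was nevertheless lower than Sham within each antibody at both times (-0.22 to -0.95). A link between the matches and the differences was not tested. The 3-unit heat shock element was in 0.603% of all promoters and in those of Hsph1, Hspd1 and Hspe1. The 2-unit form was in 15.1% of all promoters and in those of 12 members, 6 of them cytosolic and 3 small heat shock proteins. The ATF4 site was in 3.95% of all promoters and in Herpud1, Trib3, Chac1 and Asns. A UPR element, TGACGTGG, was in 0.676% of all promoters and in none of the 31 members' windows. A match describes the letters in the window only, and other forms of these elements were not searched, in Herpud1 or elsewhere.

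Many members were among the more abundant RNAs of these libraries, but 7 were below the filter and Creld2 stood at rank 8362. Hspa8, the constitutive cytosolic HSP70, had the highest mean (134 FPKM) and stood at rank 362 of the 8637 genes. Values below are in the order Sham, 4 h and 24 h of AngII. Hspa8 had 154, 133 and 165 FPKM with IgG and 108, 141 and 103 FPKM with anti-EZH2. The libraries overlapped fully between groups. Among the small heat shock proteins, Hspb7, a heart-enriched member, was highest, at 130, 171 and 146 FPKM with IgG and 80.8, 126 and 89.8 FPKM with anti-EZH2. Its AngII 4 h library was the highest of each antibody. Hspb6 (mean 102 FPKM) and the cytosolic Hsp90ab1 (mean 70.3 FPKM) followed. For 17 of the 222 member values the FPKM lay outside its own deposited interval. These were 6 values of Hspa8, 5 of Hspb6, 4 of Hsp90b1 and 2 of Hspb7, so the levels of these members are uncertain. The inducible pair Hspa1a and Hspa1b, at means of 0.412 and 0.577 FPKM, was at the other end, with Trib3 lowest at a mean of 0.176 FPKM. The summed FPKM of the 37 members was 853, 907 and 861 with IgG and 688, 818 and 562 with anti-EZH2.

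**Figure D1:**
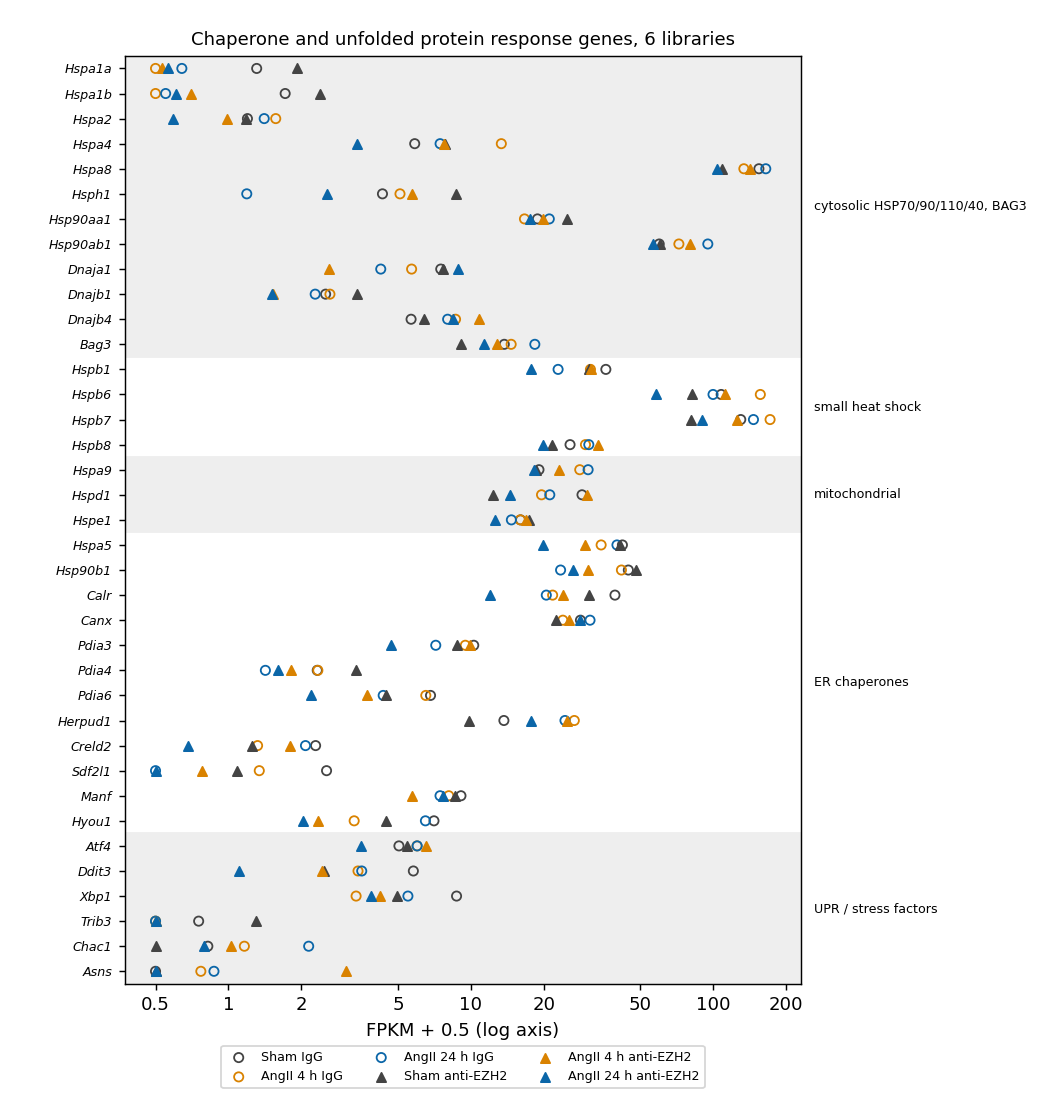
FPKM + 0.5 (log axis) of the 37 members in the 6 libraries, ordered by role; open circles are IgG libraries, filled triangles anti-EZH2 libraries, and colours mark Sham (grey), AngII 4 h (orange) and AngII 24 h (blue). Hspa8, Hspb7 and Hspb6 lie highest, and Hspa1a and Hspa1b reach more than 0.8 FPKM in the Sham libraries only.

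Whether the chaperone genes differed after acute AngII was asked by setting each AngII library against the Sham library of the same antibody. Of 11 ER chaperone genes tested, 9 were lower than Sham in both libraries at AngII 4 h and 9 at AngII 24 h. Of all genes, 28.2% and 27.6% were, and Herpud1 was higher at both times. The deposited table of the whole series, read without centring, differed at AngII 24 h. Only Calr, Pdia4, Pdia6 and Hyou1 were lower there in both libraries. Hsp90b1, Manf and Herpud1 were higher, and Hspa5, Canx, Pdia3 and Creld2 differed in sign. At AngII 4 h there, Herpud1 was higher, Canx and Creld2 differed in sign, and the others were lower. Hspa1a and Hspa1b, which were below the filter, had their highest values in the Sham libraries of the separate tables. A difference of at least 2-fold in both antibodies was rare. At AngII 4 h, 0 of 30 members were that much higher (1.99% of all genes tested) and 1, Hyou1, was lower (3.14% of all genes). At AngII 24 h, 0 were higher (1.89% of all genes) and 2, Hsph1 and Calr, were lower (2.95% of all genes). Between AngII 24 h and AngII 4 h, 0 were higher (1.78% of all genes) and 0 lower (1.75% of all genes). These shares are near those of all genes. In immunoprecipitates from whole ventricle, fewer cells of a type, less RNA per cell and lower recovery in the precipitate cannot be told apart.

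Smaller differences shared by all AngII libraries lay mostly in 1 direction. On the centred scale all 4 AngII libraries were below both Sham libraries for 9 of 30 members, beside 8.48% of all genes tested. These were Dnajb1, Hspb1, Hspe1, Hspa5, Hsp90b1, Calr, Pdia3, Pdia4 and Xbp1. All 4 were above both Sham libraries for 2 members, Hspa9 and Herpud1, beside 9.6% of all genes. The ER chaperones held 5 of the 9 (of 11 tested) and Herpud1. This count was added after the values had been seen and has no test. On FPKM without centring the lower members were 4 (Hspa5, Hsp90b1, Calr and Manf) and the higher 2 (Dnajb4 and Herpud1), beside 4.69% and 11.3% of all genes. Of 30 members, 23 differed in the same direction in both antibodies at AngII 4 h and 22 at AngII 24 h, beside 56.4% and 55.2% of all genes.

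**Figure D2:**
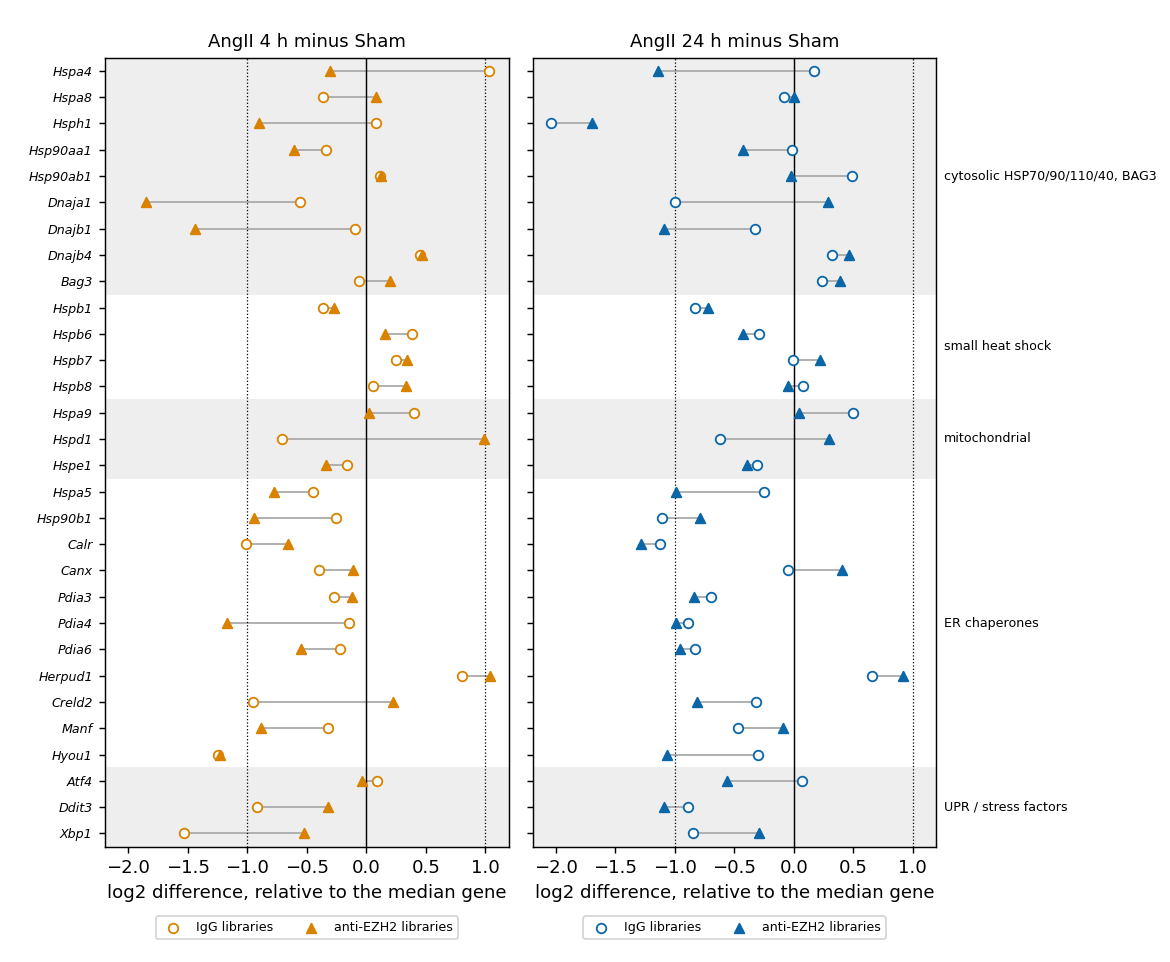
Difference from Sham in log2(FPKM + 0.5) relative to the median gene (x axis) of the 30 members tested (y axis, by role), at AngII 4 h (left) and AngII 24 h (right); circles are IgG and triangles anti-EZH2 libraries, joined by a grey line, and dotted lines mark 2-fold. Most ER chaperones lie left of 0 in both libraries, with Herpud1 to the right at 0.81 and 1.04 (4 h) and 0.66 and 0.92 (24 h).

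The median difference of the 11 ER chaperone genes, averaged over the antibodies, was -0.60 at AngII 4 h and -0.68 at AngII 24 h, beside 0.02 and 0.00 for all genes. Calr (chr8:84841850-84846934), which encodes the calcium-binding lectin chaperone calreticulin, had 38.9, 21.3 and 20.0 FPKM with IgG and 30.3, 23.5 and 11.6 FPKM with anti-EZH2. All 4 AngII values were below both Sham values. The differences from Sham were -1.01 (IgG) and -0.66 (anti-EZH2) at AngII 4 h, and at 24 h they were -1.12 and -1.28. In the deposited table of the whole series (the series table) all 4 AngII values were also below both Sham values (15.8, 5.68 and 9.19 FPKM with IgG, 13.8, 8.03 and 7.23 FPKM with anti-EZH2). Calr was the only member more than 2-fold lower at 24 h whose deposited FPKM intervals were also apart in both antibodies.

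Hspa5 encodes BiP, the HSP70 of the ER lumen. Its FPKM was 41.8, 34.0 and 39.6 with IgG and 40.9, 29.2 and 19.3 with anti-EZH2. The AngII 24 h IgG library lay close to the Sham libraries, and the AngII 24 h anti-EZH2 library was the lowest. Its differences from Sham were -0.45 and -0.77 at AngII 4 h, and at 24 h they were -0.25 and -0.99. In the series table it had 16.8, 11.5 and 21.8 FPKM with IgG and 21.4, 10.8 and 20.0 FPKM with anti-EZH2, so that only the AngII 4 h libraries lay below both Sham libraries.

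Hsp90b1 (GRP94, the HSP90 of the ER) was the most abundant ER member, at 44.2, 41.4 and 23.0 FPKM with IgG and 47.4, 30.0 and 25.9 FPKM with anti-EZH2. Both AngII 24 h libraries were lower than every other library. The differences from Sham were -0.25 and -0.94 at AngII 4 h, and at 24 h they were -1.11 and -0.79. The direction at 24 h was the opposite in the series table, where Hsp90b1 had 41.3, 22.7 and 312 FPKM with IgG and 33.5, 9.03 and 198 FPKM with anti-EZH2. GENCODE M21 places the small RNA gene Gm25745 and the gene Gm15344 within Hsp90b1 on its strand, and for 4 of the 6 separate values the FPKM lay outside its own deposited interval. Which table is nearer to the mRNA was not tested.

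Hyou1 (chr9:44379490-44392369), the HSP110-like nucleotide exchange factor of BiP, had 6.55, 2.80 and 6.00 FPKM with IgG and 3.97, 1.84 and 1.53 FPKM with anti-EZH2. Its differences at AngII 4 h were -1.25 and -1.23. At AngII 24 h the IgG library was back near its Sham value (-0.30), while the anti-EZH2 library was not (-1.07). The deposited intervals of Sham and AngII 4 h overlapped in both antibodies.

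The disulfide isomerase genes Pdia3, Pdia4 and Pdia6 were lower in both libraries at both times. Their mean differences were -0.20, -0.66 and -0.39 at AngII 4 h, then -0.77, -0.94 and -0.89 after 24 h. Manf, a secreted ER stress protein, was also lower in both libraries each time, with mean differences of -0.60 and -0.28. Canx, the membrane-bound lectin chaperone calnexin, was not: its mean differences were -0.26 and 0.18, and its FPKM stayed between 21.9 and 30.6. Creld2 was near the filter, with a mean of 1.07 FPKM, and differed in sign between the antibodies at AngII 4 h (-0.95 and 0.22).

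Herpud1, which encodes an ER membrane protein of ER-associated degradation, was the ER gene with the opposite difference. Its FPKM was 13.2, 26.3 and 24.0 with IgG and 9.37, 24.4 and 17.3 with anti-EZH2. All 4 AngII libraries were above both Sham libraries, also without centring and in the series table (6.78, 9.31 and 16.7 with IgG, 5.40, 11.2 and 16.3 with anti-EZH2). GENCODE M21 has the gene Gm15890 on the opposite strand of Herpud1. The libraries were stranded, but whether the FPKM were counted by strand is not given. The part of Gm15890 in the Herpud1 values was not tested.

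Sdf2l1, a cofactor of ER HSP40 proteins, did not pass the filter. It had 2.04 and 0.840 FPKM in the Sham and AngII 4 h IgG libraries and 0.581 and 0.277 FPKM in the anti-EZH2 libraries, and was listed at 0 in both AngII 24 h libraries. Its Sham values correspond to about 8 and 3 fragments.

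The inducible HSP70 genes Hspa1a (chr17:34969190-34972156) and Hspa1b (chr17:34956436-34959238) are near-identical copies, so that the split of fragments between them is uncertain. Hspa1a had 0.808, 0 and 0.142 FPKM with IgG and 1.43, 0.0302 and 0.0630 FPKM with anti-EZH2. Hspa1b had 1.21, 0 and 0.0504 FPKM with IgG and 1.89, 0.201 and 0.107 FPKM with anti-EZH2. For both genes each Sham value was above every AngII value. This was not so for Hspa1a in the series table, which had 0.0239, 0 and 0.0727 FPKM with IgG and 0.185, 0 and 0 FPKM with anti-EZH2. Hspa1b had 0.0982, 0 and 0 FPKM with IgG there and 0.193, 0.0272 and 0 FPKM with anti-EZH2.

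The sum of the pair was 2.02 FPKM (about 23 fragments) in the Sham IgG library and 3.32 FPKM (about 50 fragments) in the Sham anti-EZH2 library. With anti-EZH2, about 5 fragments remained at AngII 4 h, a Sham/AngII ratio of 13.9 (exact 95% interval 5.58 to 44.7). About 2 remained at AngII 24 h, a ratio of 21.0 (5.51 to 178). With IgG, none were counted at AngII 4 h. Against a floor of 3 fragments Sham was at least 9.3-fold higher, and the exact 95% lower limit of the ratio was 6.97. About 2 fragments were counted at AngII 24 h, a ratio of 10.1 (2.51 to 88.8). These intervals cover counting error between single libraries only and do not compare the treatments. They were added after the values had been seen. The counts and ratios are of the separate tables only. In the series table the Sham values of both genes were lower, and no fragments were inferred from it.

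Of the other cytosolic members, Hsph1 (chr5:149614287-149636376), the HSP110 exchange factor, had the largest differences at AngII 24 h. Its FPKM was 3.82, 4.60 and 0.690 with IgG and 8.18, 5.20 and 2.05 with anti-EZH2. Both AngII 24 h libraries were below the other 4, with differences of -2.04 and -1.69 from Sham, and the AngII 4 h IgG library was above its Sham library. Its deposited intervals overlapped between Sham and AngII 24 h in both antibodies.

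Dnajb1, an HSP40 induced by heat shock, was low in all libraries, at 2.02, 2.12 and 1.78 FPKM with IgG and 2.89, 1.03 and 1.01 FPKM with anti-EZH2. Only the anti-EZH2 libraries set AngII clearly apart from Sham. Dnaja1 was lower at AngII 4 h (-0.56 and -1.85) and differed in sign between antibodies at AngII 24 h, with a mean of -0.36. Hspa4, another exchange factor of HSP70, differed in sign at both times, at 1.03 and -0.31 at AngII 4 h, then 0.17 and -1.14 after 24 h.

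The abundant cytosolic chaperones differed little. The mean differences of Hspa8 were -0.14 and -0.04, those of Hsp90ab1 0.12 and 0.23, and those of the stress-inducible HSP90 gene Hsp90aa1 -0.47 and -0.22. Bag3 had 0.07 and 0.32, and Dnajb4 had 0.46 at AngII 4 h and 0.39 at AngII 24 h. Hspa2, the HSP70 best known from testis, was below the filter in these hearts, at 0.0902 to 1.07 FPKM. Over the 9 cytosolic members tested, 2 were higher and 3 lower in both libraries at AngII 4 h, and 2 were higher and 4 lower at AngII 24 h.

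Among the small heat shock proteins, Hspb1 (HSP25 in the mouse) was the lower one. Its FPKM was 35.6, 30.7 and 22.4 with IgG and 30.3, 30.7 and 17.3 with anti-EZH2. The AngII 24 h libraries were lowest, with differences of -0.83 and -0.72 from Sham. On FPKM without centring its AngII 4 h values overlapped Sham. In the series table the direction at 24 h was the opposite, at 6.13, 4.23 and 14.4 FPKM with IgG and 7.99, 5.35 and 17.5 FPKM with anti-EZH2. Hspb6 had mean differences of 0.27 at AngII 4 h and -0.36 at AngII 24 h, Hspb7 0.29 and 0.11, and Hspb8, the partner of Bag3, 0.19 and 0.01.

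Of the mitochondrial chaperones, Hspa9 (mortalin, the HSP70 of the matrix) had 18.6, 27.7 and 30.0 FPKM with IgG and 18.0, 22.6 and 17.7 FPKM with anti-EZH2. The difference was clear with IgG (0.40 and 0.49) and near 0 with anti-EZH2 (0.02 and 0.05). Without centring, the AngII 24 h anti-EZH2 library was below both Sham libraries. Hspe1, the small subunit of the chaperonin, had differences of -0.16 to -0.40 from Sham over the 4 AngII libraries. Its partner Hspd1 differed in sign between antibodies at both times, at -0.71 and 0.99 at AngII 4 h, then -0.62 and 0.30 after 24 h.

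Of the transcription factors, Atf4 had 4.55, 5.50 and 5.51 FPKM with IgG and 4.96, 6.01 and 3.02 FPKM with anti-EZH2, and the groups overlapped. Xbp1 had 8.24, 2.86 and 5.00 FPKM with IgG and 4.46, 3.72 and 3.36 FPKM with anti-EZH2. On the centred scale all AngII libraries were below Sham, with the largest difference at AngII 4 h with IgG (-1.53). The FPKM are per gene, so that spliced and unspliced Xbp1 were not separated.

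Ddit3 (CHOP) was lower than Sham in both libraries each time, with differences of -0.92 and -0.32 at AngII 4 h, then -0.89 and -1.09 after 24 h. Trib3 was listed at 0 in all 4 AngII libraries and had 0.253 and 0.803 FPKM in the Sham IgG and anti-EZH2 libraries. Chac1 had 0.322, 0.663 and 1.64 FPKM with IgG and 0, 0.524 and 0.291 FPKM with anti-EZH2, about 9 fragments at most. Asns was listed at 0 in both Sham libraries and at AngII 24 h with anti-EZH2, and had 0.269, 0.371 and 2.55 FPKM in the AngII 4 h IgG, AngII 24 h IgG and AngII 4 h anti-EZH2 libraries. The 3 targets of ATF4 thus differed in direction, on few fragments.

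**Figure D3:**
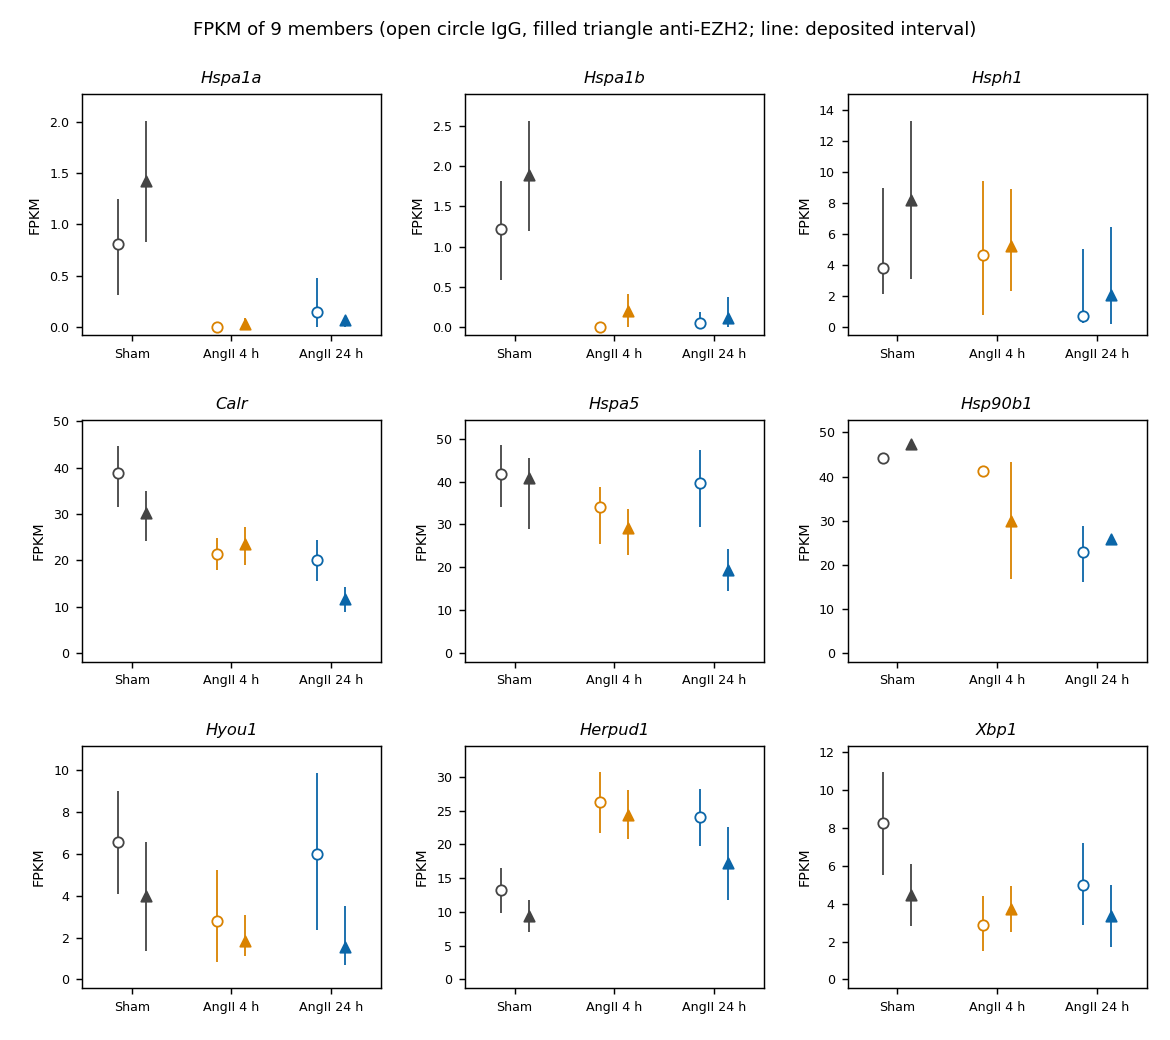
FPKM (y axis, from 0) of 9 members in Sham, AngII 4 h and AngII 24 h; open circles are IgG and filled triangles anti-EZH2 libraries, and vertical lines are the deposited FPKM intervals, left out where the value lies outside its own interval (4 values of Hsp90b1). In these separate tables each Sham value is above every AngII value for Hspa1a, Hspa1b, Calr, Hspa5 and Hsp90b1, and below every AngII value for Herpud1.

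The wider pathway was read from a separate list. Of 110 other chaperone, ER and stress response genes on it, 82 passed the filter. At AngII 4 h, 1 was more than 2-fold higher in both libraries (Dnajc7, an HSP40 co-chaperone, with a mean difference of 1.06) and 1 lower (Derl2, of ER-associated degradation, -1.24). At AngII 24 h, 2 were higher (the mitochondrial protease Clpp, 1.64, and the ER co-chaperone Dnajc3, 1.11) and 0 lower. From AngII 4 h to AngII 24 h, 1 was higher (Dnaja4, 1.18). All 4 AngII libraries lay below both Sham libraries for 5 of the 82 and above them for 9. Of 23 other ER genes, 7 were lower and 6 higher in both libraries at AngII 4 h, with a median difference of -0.17. At AngII 24 h, 6 were lower and 8 higher, with a median of -0.09.

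Other RNAs also differed between the Sham and AngII libraries. All 3 atrial markers tested (Nppa, Myl4 and Myl7) were lower in every AngII library than in both Sham libraries, and their sum was 44.0 and 29.6 FPKM in the Sham libraries and 5.36 to 11.7 FPKM in the AngII libraries. The fourth, Sln, was listed at 0 in all libraries. Myl7 had 14.3 and 12.2 FPKM in the Sham libraries and 0 to 0.491 FPKM in the AngII libraries. Of 8 cardiomyocyte markers, which together summed to 4924 to 8582 FPKM, 5 were above Sham in all AngII libraries and 0 below. Of 6 fibroblast markers 1 (Col1a1) and of 6 endothelial markers 2 (Cdh5 and Kdr) were below Sham in all AngII libraries. So were 1 of 2 smooth muscle markers tested (Acta2) and both macrophage markers tested (Csf1r and Lyz2). Of the listed genes under the filter, Myh11 had 0.108 and 0.164 FPKM in Sham and 0.326 to 0.565 FPKM in the AngII libraries. Cd163 was above Sham within each antibody at both times. Cnn1, Cd68, Adgre1, S100a8 and S100a9 did not separate the groups. Sums were taken over all listed genes, with those under the filter: 6 fibroblast, 6 endothelial, 4 smooth muscle, and 7 macrophage and neutrophil genes. In that order they were 63.4 to 74.5, 75.3 to 101, 5.18 to 6.52 and 19.4 to 22.5 FPKM in the Sham libraries. In the AngII libraries they were 50.0 to 60.6, 54.9 to 92.2, 2.40 to 7.54 and 12.1 to 23.1. Of 5 erythroid markers, 4 were lower than Sham in both libraries at AngII 4 h (median difference -0.65) and 5 higher at AngII 24 h (0.38), and Hba-a1 and Hba-a2 were more than 2-fold higher at AngII 24 h than at AngII 4 h in both. Their summed FPKM was 920, 625 and 1454 with IgG and 724, 587 and 810 with anti-EZH2. The part of these RNAs in the differences of the chaperone genes was not tested.

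Whether EZH2 immunoprecipitates held more of these RNAs than IgG was tested with limma over the 3 groups, with the group as a block. Of the 30 members, 0 were called higher and 0 lower at an adjusted p under 0.05, beside 0.0% and 0.0% of all genes tested. At an unadjusted p under 0.05, limma had 2 of 30 members and 537 of 8637 genes (6.22%). By the 2-fold rule, 0 members were higher with anti-EZH2 in all 3 groups (1.46% of all genes) and 0 lower (0.162% of all genes). An exact permutation of signs over 3 pairs could not go below p = 0.25 and was not used.

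The estimates of the 30 members lay between -0.90 and 0.99, and the 95% interval was within 2-fold either way for 20 of them. The lowest was Ddit3, at 5.30, 2.93 and 3.05 FPKM with IgG and 1.99, 1.94 and 0.608 FPKM with anti-EZH2. Its anti-EZH2 library was lower in all 3 groups, with an estimate of -0.90 ± 0.28 (SE, 95% interval -1.66 to -0.14, limma adjusted p = 0.792). The highest was Hsph1, at 0.99 ± 0.36 (SE, 0.00 to 1.97, limma adjusted p = 0.793), higher in all 3 groups. Neither passed the correction. Hyou1 (-0.71) and Pdia6 (-0.57) were also lower with anti-EZH2 in every group, with limma adjusted p = 0.801 for each.

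The intervals of the 4 most abundant members included 0. Hspa8 had an antibody difference of -0.13 (95% interval -0.72 to 0.46), Hspb7 -0.38 (-0.93 to 0.17), Hspb6 -0.33 (-0.86 to 0.21) and Hsp90ab1 0.03 (-0.56 to 0.63). Calr had -0.10 (-0.69 to 0.50). Over the 30 members, 4 were higher with anti-EZH2 in all 3 groups (Hsph1, Hsp90aa1, Dnajb4 and Hspe1) and 6 lower (Bag3, Hspb6, Hspb7, Pdia6, Hyou1 and Ddit3), beside 14.8% and 15.2% of all genes. In simulated data with the mean level of each gene, all genes were given the same spread, the median of the real ones. There limma called 34.0% of genes changed 2-fold, 92.0% of those changed 4-fold and 100.0% of those changed 8-fold. The real spread differed between genes, with an SE from 0.19 (Hspb6) to 0.57 (Dnaja1) among the members. The simulated shares therefore do not say how often a change of a given member would be called.

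**Figure D4:**
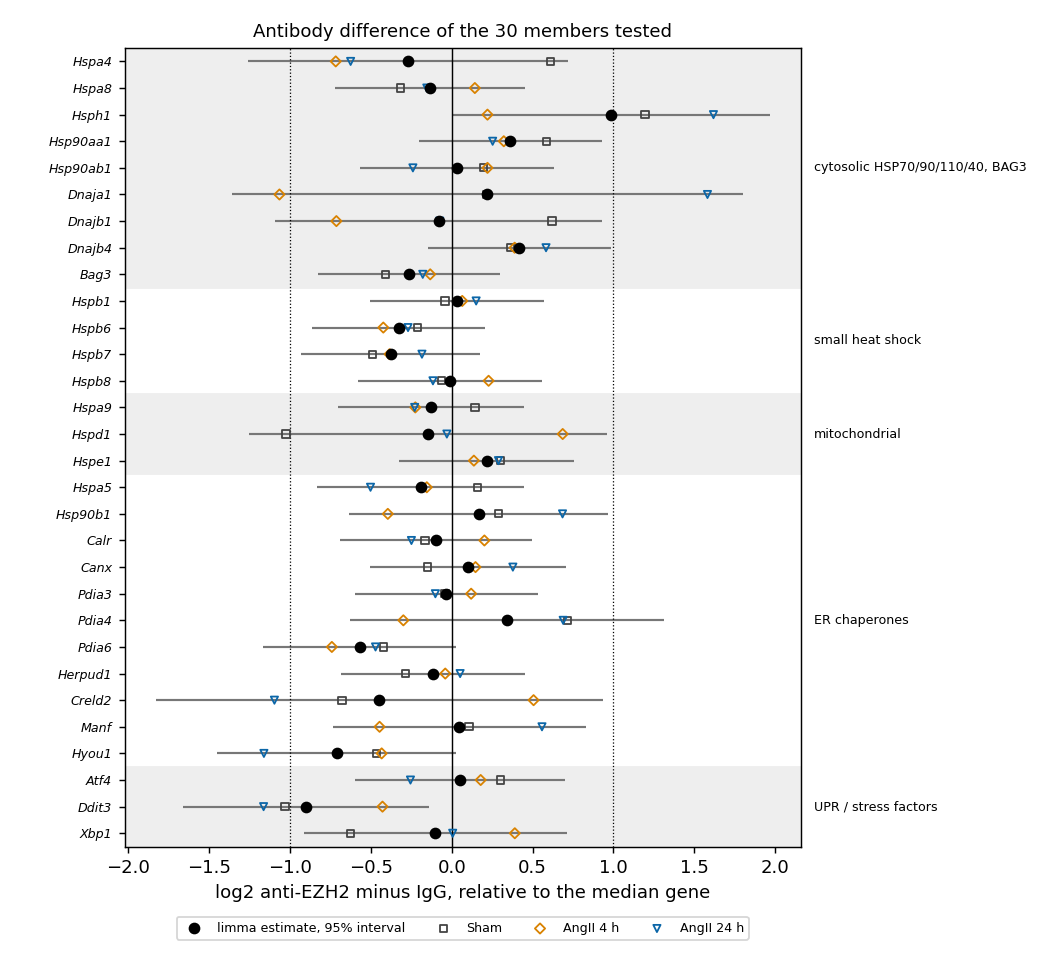
Difference between anti-EZH2 and IgG in log2(FPKM + 0.5) relative to the median gene (x axis) for the 30 members tested; filled circles and lines are the limma estimates with 95% intervals, open symbols the 3 groups, and dotted lines mark 2-fold. The intervals of 20 members lie within 2-fold, and those of Ddit3 and Hsph1 exclude 0 before adjustment.

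The 2 forms of deposited table differed for these genes. Of 222 values, 88 were more than 2-fold apart between the separate tables and the series table, and Hspa8 was so in all 6 libraries. In the series table it had 1771, 353 and 3149 FPKM with IgG and 1723, 1564 and 2595 FPKM with anti-EZH2. GENCODE M21 places 3 snoRNA genes (Snord14c, Snord14d and Snord14e) within Hspa8 on its strand. Small RNA genes lie on the strand of 6 members (Hspa8, Dnaja1, Hspb6, Hspa9, Hsp90b1 and Pdia4), and 11 members overlap a gene on the opposite strand. The part of these RNAs in the series table was not tested.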

How the data were processed

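The authors prepared stranded libraries (KAPA) from RIP RNA of left ventricles and sequenced them on an Illumina NextSeq; the submitters' processing notes name TopHat2 and the build mm10. The deposited values are FPKM, in a table of each library with an interval for each FPKM (columns of a Cufflinks gene table, level of the interval not given) and in a table of the whole series. The program and annotation behind the FPKM are not given in the sources used here. The separate tables were used, with values below 0.001 FPKM set to 0. Gene positions came from GENCODE M21 (GRCm38, the same assembly as mm10).

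The members and gene lists were chosen with earlier results of these data known. Genes with a mean of at least 1 FPKM over the 6 libraries were compared on log2(FPKM + 0.5), centred on the median gene. AngII libraries were set against Sham within each antibody, with no test. Antibodies were compared with limma 3.58.1 (trend, group as block, two-sided, Benjamini-Hochberg over 8637 genes) in R 4.3.3. The 3 pairs are of different mice. Values in every library were to be given for members past 2-fold in both libraries, the leading member of each role, Hspa1a and Hspa1b, and members at 0 in a library; the other members described in full (Hspa5, Herpud1, Dnajb1, Hspb1, Xbp1 and Ddit3) were chosen after their values were seen. Other pathway genes were named when past 2-fold in both libraries. Fragments were inferred from single-transcript genes, and ratios of them have exact binomial intervals at the 95% level, which cover counting error only. The procedures were tested on simulated data. In the simulation of the antibody comparison, which gave all genes the same spread, 9 of 8437 unchanged genes were called. Other calculations ran in Python 3.11.15 with scipy 1.17.1, pandas 2.3.3 and numpy 2.4.6, and plots were drawn with matplotlib 3.10.9. Alternatives were pseudocounts of 0.1 and 1 FPKM, no filter, a mean of at least 5 FPKM, no centring, the series table, a 1.5-fold threshold, intervals apart and leaving out each pair or library.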

Additional observations from a re-analysis of the deposited data

Results flagged for a closer look

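Dnaja1, an HSP40 gene, differed between antibodies in opposite directions in the AngII groups. The difference between anti-EZH2 and IgG was -1.06 at AngII 4 h and 1.58 at AngII 24 h (log2, relative to the median gene), from 1 library of each antibody. The difference between the groups was not tested.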

How the results depend on the processing

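Of 104 values of 12 counts under alternatives, 78 stayed within 1.5 times the reported count and 26 did not. With no filter on low values, the members more than 2-fold lower in both libraries were 2 at AngII 4 h (Hspa1a and Hspa1b, not Hyou1), 4 at AngII 24 h (Hspa1a, Hspa1b, Hsph1 and Sdf2l1) and 1 from AngII 4 h to AngII 24 h (Hsph1). Under that setting 6 members had all AngII libraries above Sham, beside 6.95% of all genes. With a mean of at least 5 FPKM, which Hyou1 and Hsph1 do not reach, those lower were 0 and 1. All AngII libraries were then below Sham for 5 members, beside 8.96% of all genes. Without centring, those lower were 0 at AngII 4 h, 1 at AngII 24 h (Hsph1) and 1 from AngII 4 h to AngII 24 h. On that scale 4 members were below Sham in all AngII libraries, beside 4.69% of all genes. In the series table, 1 member was higher at AngII 24 h than in Sham (Hsp90b1), and 3 were higher (Hsp90aa1, Hspb1 and Hsp90b1) and 2 lower (Hspa4 and Hsph1) at AngII 24 h than at AngII 4 h. There 5 members were below and 1 above Sham in all AngII libraries, beside 7.72% and 10.2% of all genes. At 1.5-fold, 1 was higher (Herpud1) and 2 lower at AngII 4 h, 1 higher (Herpud1) and 8 lower at AngII 24 h, and 2 lower from AngII 4 h to AngII 24 h. No share of all genes is given for the 2-fold and 1.5-fold counts under these alternatives. They show only how the members called depend on the setting. With intervals apart as well, 0 were lower at AngII 4 h and 1 at AngII 24 h (Calr). Other than the filters, which change the genes compared, the cause was not tested. Leaving out each library in turn gave 9 to 15 members below and 2 to 5 above both Sham libraries, beside 10.9% to 23.0% and 12.2% to 23.4% of all genes, where a single Sham library is left for the comparison in the widest cases (15 without Sham anti-EZH2, 5 without Sham IgG). limma called 0 members when each pair was left out, with the other pseudocounts and filters, without centring and in the series table, with lowest adjusted p between 0.675 and 0.885. No value rests on replicates of a treatment, and about 3820000 to 7890000 fragments leave members under 1 FPKM at a few fragments.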
